A study of Bos taurus with 27 samples.

Results

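The smooth muscle contractile and tropomyosin genes are the 10 genes whose names were looked up among the non-control probes of a bovine array: *MYH11*, *MYL9*, *ACTA2*, *TAGLN*, *DES*, *CNN1*, *TPM1*, *TPM2*, *TPM3* and *TPM4*. Each had 1 probe, so 10 of 15008 probes and 10 of 14952 gene names were members. They were read in rumen epithelium (RE) biopsies of 9 castrated and fistulated Japanese Black cattle, taken from the same animals at 14, 21 and 29 months of age, the early, middle and late stage of fattening. All cattle received concentrate and rice straw throughout, with no unfattened control group, so a stage differs from the next in diet, age and time together and these cannot be told apart. The authors scratched epithelium off the ventral sac of the rumen with a biopsy punch and washed it. A biopsy of this kind can also hold connective tissue, vessels and muscle from beneath the epithelium, and its depth was not reported. The comparison within animals asks whether RNA of the deeper layers of the wall changed between stages.

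Smooth muscle contracts when myosin filaments pull on actin filaments. *MYH11* encodes the smooth muscle myosin heavy chain, *MYL9* a regulatory light chain and *ACTA2* the smooth muscle alpha actin. Calponin (*CNN1*) and transgelin (*TAGLN*) bind the actin filament, and desmin (*DES*) forms the intermediate filaments that link contractile units in muscle cells. Tropomyosins lie along the actin filament and govern which proteins reach it. *TPM1* and *TPM2* are abundant in muscle, whereas *TPM3* and *TPM4* also serve the cytoskeleton of cells that are not muscle. The muscle coat of the rumen mixes its contents, and blood vessels carry a smooth muscle layer of their own.

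The values rest on short stretches of each messenger RNA. The sequences of 5 probes are shown, 5′ to 3′, because the results turn on them: the myosin heavy chain, 2 of the markers that varied together between cattle, and the tropomyosins with the largest fall and the 1 first-period call toward lower levels.
MYH11: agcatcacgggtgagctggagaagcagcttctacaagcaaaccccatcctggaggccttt
TAGLN: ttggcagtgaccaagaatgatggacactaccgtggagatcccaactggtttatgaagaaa
DES: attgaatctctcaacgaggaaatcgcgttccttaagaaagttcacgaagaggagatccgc
TPM3: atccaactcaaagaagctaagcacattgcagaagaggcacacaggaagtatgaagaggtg
TPM1: ttcttttGGGGGCGGCGGGGCGCGttttgt
The *TPM1* line holds bases 21 to 50 of its probe, and the capitals mark an unbroken run of 17 G and C bases inside a stretch rich in T. In the array design, which uses the UMD_3.1 genome, the *MYH11* probe covered chr25:14280649-14284482 on the minus strand. The *TAGLN* probe covered chr15:28322682-28323084, that of *DES* chr2:108077315-108077493 and that of *TPM3* chr3:16390591-16390738, all on the plus strand. These spans are longer than the 60 bases of a probe, so each of the 4 probes joined exons across at least 1 intron. The *CNN1* probe did the same at chr7:17112174-17112373 on the plus strand. The other mapped probes each lay in 1 unbroken block, at chr13:66313549-66313608 for *MYL9* (plus strand), chr26:10662446-10662505 for *ACTA2*, chr8:60267804-60267863 for *TPM2* and chr7:7923225-7923284 for *TPM4* (minus strand for these 3). The *TPM1* probe stood apart. It was designed on an expressed sequence tag, the design gave it no genome position, and it was the 1 member of 10 with no match in the gene table used here. Its name therefore rests on the array design alone. No member shared a run longer than 14 bases with any other probe on the array.

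A level is the log2 of the background-subtracted intensity minus the median of its array, so a level of 0 is the median probe. Middle-stage arrays were the dimmest. Their median intensity, on the linear scale, was 8.05 to 28.1, against 34.5 to 47.5 at the early and 31.4 to 45.9 at the late stage. The share of probes that the scanner software marked as well above background was 48.5 to 71.5% at the middle stage, 68.8 to 78.1% at the early and 68.4 to 73.7% at the late stage. Slide 1 held 8 early arrays and slide 4 held 8 late arrays, slide 2 held 7 middle arrays and 1 early array, and no late array shared a slide or scan day with another stage. Stage and slide therefore cannot be told apart for the late arrays. The first period is the middle minus the early stage, the second the late minus the middle stage, and the total period the late minus the early stage. Over all 15008 probes the log2 fold change had a median of 0.32, −0.27 and 0.03 in these comparisons. Quantile normalization moved the first 2 of these medians to 0.09 and −0.04, and the higher share of the calls from 68.0 to 51.3% in the first and from 37.7 to 51.3% in the second period.

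Markers of the labeled tissue were read on most arrays. Of 17 stratified epithelium genes, 15 were well above background on all 9 early arrays, 12 on all 9 middle arrays and 15 on all 9 late arrays. Among the members, *ACTA2*, *TAGLN*, *TPM3* and *TPM4* were well above background on all 27 arrays. *MYL9* missed 1 middle array, *TPM2* missed 3 middle arrays, and *MYH11* was well above background on 7 of 9 arrays at each stage. *DES* was so on 5, 2 and 3 arrays of the early, middle and late stages, *CNN1* on 8, 2 and 6, and *TPM1* on 9, 9 and 2. No member spot was saturated. One middle-stage spot of *TPM4*, in animal 8, was an outlier by the scanner software and was treated as missing, which left 8 pairs for that gene in both comparisons with the middle stage.

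**Figure D1:**
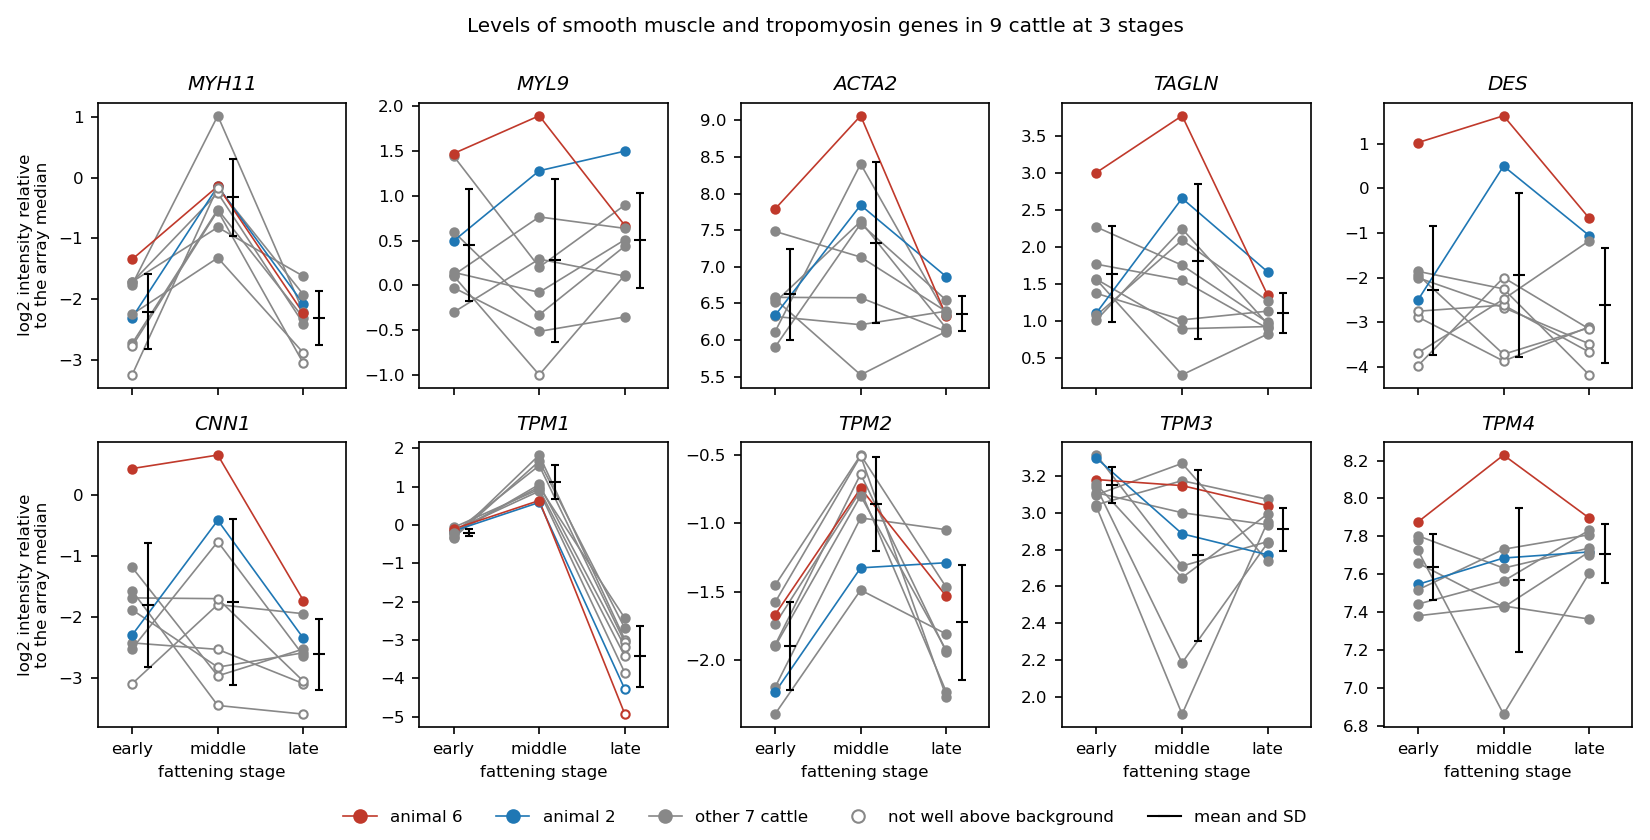
Level of each of the 10 genes (log2 intensity relative to the array median) at the early, middle and late stage, with 1 line per animal, open circles where the probe was not well above background, and the mean and SD of the stage in black. *MYH11* and *TPM2* peaked at the middle stage in nearly all cattle, *TPM1* fell to −2.43 or lower in every animal at the late stage, and animal 6 (red) was the highest for *TAGLN*, *DES* and *CNN1* at the early and middle stages.

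The contractile genes did not move as 1 group between stages. In the first period 5 of the 10 members had an adjusted P below 0.05, beside 66.5% of all probes. *MYH11*, *ACTA2*, *TPM1* and *TPM2* were higher (4 of 10, beside 45.3% of all probes) and *TPM3* was lower (1 of 10, beside 21.3%) at the middle stage. In the second period 6 of 10 passed, beside 71.5% of all probes, and all 6 were lower at the late stage (with normexp 5 were lower and 2 higher), whereas 44.6% of all probes were called lower. In the total period 1 of 10 passed, *TPM1*, beside 20.1% of all probes, and it was lower, beside 8.93%. The median log2 fold change of the 6 contractile and filament genes was 0.26, −0.78 and −0.30 in the 3 comparisons, and that of the 4 tropomyosins was 0.49, −0.37 and −0.08. With rises and falls pooled, calls were thus no more frequent among the members than among all probes in any period. Calls of a fall were more frequent among the members in the second period (6 of 10 beside 44.6%). In the total period they were 1 of 10 beside 8.93%, which rests on *TPM1* alone. These shares are a description of 10 genes. Relative to the median of all probes, the first-period changes were 1.56 for *MYH11*, 0.999 for *TPM1*, 0.71 for *TPM2*, 0.38 for *ACTA2* and −0.71 for *TPM3*. Those of the second period were −4.29 for *TPM1*, −1.71 for *MYH11*, −0.70 for *ACTA2*, −0.60 for *TPM2*, −0.59 for *CNN1* and −0.43 for *TAGLN*.

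**Figure D2:**
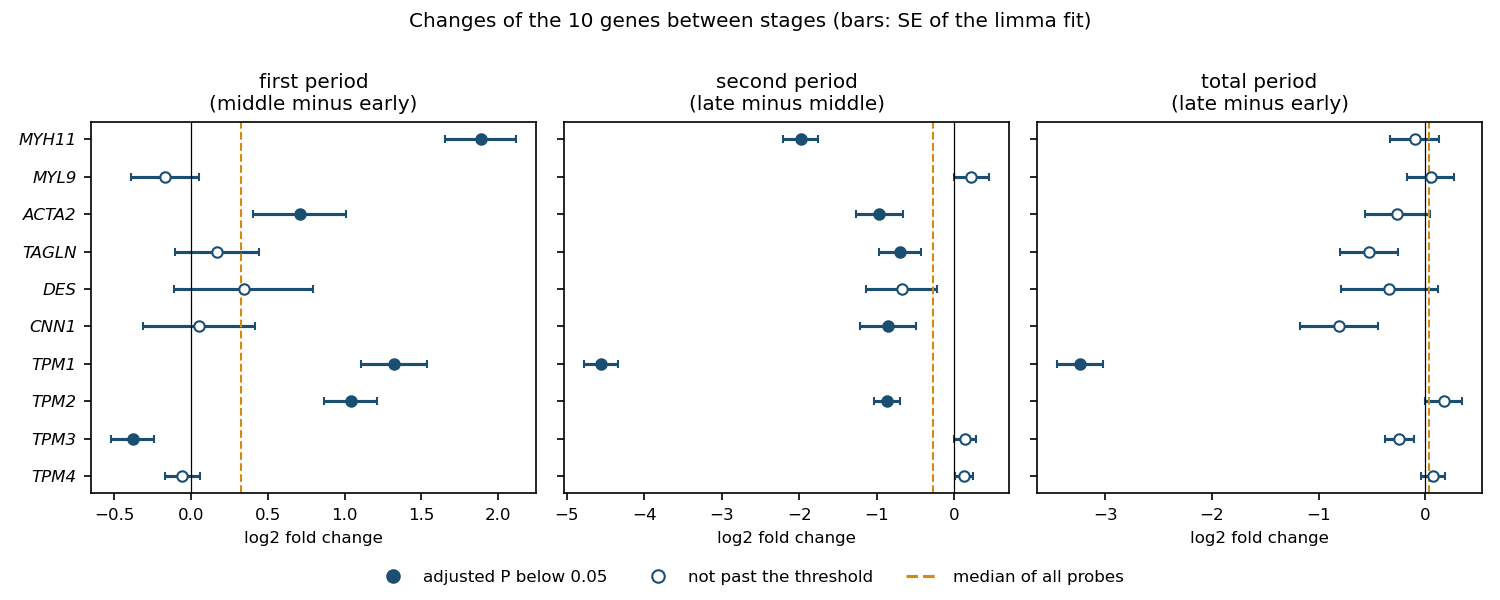
Log2 fold change of each gene in the first, second and total period, with bars for the SE of the limma fit, filled circles where the adjusted P was below 0.05 and a dashed line at the median of all probes. *MYH11* and *TPM1* lay farthest from that median in the first and second periods, and *TPM1* alone passed in the total period.

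The myosin heavy chain changed most regularly of the contractile genes. *MYH11* levels ran from −3.25 to −1.35 (median −2.25) at the early stage, from −1.32 to 1.02 (median −0.25) at the middle stage and from −3.06 to −1.62 (median −2.24) at the late stage. The middle-stage levels lay above all levels of both other stages, which overlapped each other. Such a separation of the 2 stages was found for 13.0% of all probes in the first, 20.7% in the second and 6.55% in the total period. The level rose by 1.88 (SE 0.23) on the log2 scale in the first period, a 3.69-fold change, in 9 of 9 cattle (adjusted P = 2.17e-06). In the second period it fell by 1.98 (SE 0.23), in 9 of 9 cattle (adjusted P = 5.45e-07). The late-stage and early-stage means then differed by −0.10 (SE 0.23, adjusted P = 0.829). Within slide 2, where 7 middle-stage arrays stood against the early array of animal 9, the first-period difference was 2.89, and limma gave an adjusted P of 0.160. That single early array had the lowest early-stage level (−3.25) and was not well above background, so the value has no spread of its own on the early side.

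The smooth muscle actin moved less evenly. *ACTA2* levels were 5.90 to 7.79 (median 6.52) early, 5.52 to 9.06 (median 7.59) midway and 6.12 to 6.87 (median 6.34) late in fattening. The spread between cattle was widest at the middle stage, with an SD of 1.1 against 0.62 and 0.24, and the 3 ranges overlapped. *ACTA2* was 0.71 (SE 0.30) higher at the middle stage, in only 5 of 9 cattle (adjusted P = 0.0455). The fall of the second period was 0.97 in size and was seen in 7 of 9 cattle (log2 fold change −0.97, SE 0.30, adjusted P = 0.00764). The first-period call was lost under quantile normalization (adjusted P = 0.0882), normexp correction (0.18, adjusted P = 0.722), every use of the slide as a block, slide 2 or the first scan day alone (0.42, adjusted P = 0.302), the methods' t-test (0.131), a fit of 2 stages, no animal block, and in limma without animal 2, 6, 7, 8 or 9 or without cattle 2 and 6. The second-period call was lost with normexp (−0.19, adjusted P = 0.690), the slide as a random block (0.0530) and without cattle 2 and 6.

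The actin-binding proteins passed the test in the second period only. *TAGLN* levels were 1.01 to 3.00 (median 1.55), 0.27 to 3.77 (median 1.75) and 0.82 to 1.66 (median 0.97) at the early, middle and late stages, all overlapping. *TAGLN* was 0.70 (SE 0.27) lower at the late than the middle stage, in 6 of 9 cattle (log2 fold change −0.70, adjusted P = 0.0280). *CNN1* levels were −3.09 to 0.43 (median −1.88), −3.45 to 0.66 (median −1.79) and −3.59 to −1.73 (median −2.58). Calponin fell by 0.86 (SE 0.36) in the second period, in 7 of 9 cattle (adjusted P = 0.0416), with overlapping ranges and only 2 middle-stage arrays well above background. In the first period *TAGLN* differed by 0.17 and *CNN1* by 0.05, with adjusted P of 0.592 and 0.913. Whether the first-period and second-period changes of these genes differ in size was not tested. Without cattle 2 and 6, the second-period values were −0.71 for *ACTA2*, −0.41 for *TAGLN* and −0.49 for *CNN1*, with adjusted P of 0.0613, 0.167 and 0.270. The second-period calls of *TAGLN* and *CNN1* were also lost with the slide as a random block, by the methods' t-test and without the animal block, that of *TAGLN* with normexp (−0.18, adjusted P = 0.409) and that of *CNN1* with quantile normalization (−0.36, adjusted P = 0.518). Limma also lost the *TAGLN* call without animal 6 or 9 and the *CNN1* call without animal 1, 2, 6, 8 or 9.

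The light chain and desmin passed in no comparison on the median-scaled levels. *MYL9* levels were −0.30 to 1.47 (median 0.15), −0.996 to 1.89 (median 0.20) and −0.35 to 1.50 (median 0.51), and its log2 fold changes were −0.17, 0.22 and 0.05 (adjusted P = 0.506, 0.377 and 0.915). *DES* levels were −3.98 to 1.03 (median −2.50), −3.87 to 1.63 (median −2.48) and −4.18 to −0.67 (median −3.13). Its log2 fold changes were 0.34, −0.68 and −0.34, each with an SE of 0.45 (adjusted P = 0.510, 0.182 and 0.671). Desmin thus had the widest spread between cattle of the 10 genes at each stage (SD 1.45, 1.84 and 1.29). With normexp correction, *DES* passed in the first period (0.27, adjusted P = 0.0143) and in the second (−0.38, adjusted P = 0.00138).

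The 4 tropomyosins went different ways. *TPM1* levels lay within a narrow band from −0.34 to −0.06 (median −0.18) at the early stage, rose to between 0.59 and 1.83 (median 1.00) at the middle stage, and ran from −4.93 to −2.43 (median −3.18) at the late stage. No 2 of the 3 stages overlapped. In the first period the level rose by 1.32 (SE 0.21) in 9 of 9 cattle (adjusted P = 4.00e-05). In the second period it fell by 4.56 (SE 0.21) in 9 of 9 cattle (adjusted P = 6.14e-12). Over the total period it fell by 3.23 (SE 0.21) in 9 of 9 cattle (adjusted P = 2.67e-09). Only 2 of 9 late-stage arrays read this probe well above background, so the size of both falls is not firm and late-stage levels give no order of cattle. With normexp correction the values were −0.93 and −0.54 and both calls were kept. The array held 105 probes with no genome position. Of these, 74.3% were called lower in the second period at a median of −1.30 (log2), beside 44.6% and −0.27 for all probes. In the total period 12.4% of these probes were called lower at a median of −0.17, beside 8.93% and 0.03 for all probes. The part of probe design in the *TPM1* values was not tested.

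*TPM2*, the beta tropomyosin of muscle, shared the rise and fall of *MYH11* at lower amplitude. Its levels were −2.40 to −1.45 (median −1.89), −1.49 to −0.50 (median −0.76) and −2.27 to −1.05 (median −1.81). The early and middle ranges touched by the level of 1 middle-stage array (animal 5), and the late range overlapped both. The level rose by 1.04 (SE 0.17) in the first period, by 0.91 to 1.25 in each of the 9 cattle (adjusted P = 4.53e-05). It fell by 0.87 (SE 0.17) in the second period, in 8 of 9 cattle (adjusted P = 1.77e-04), and differed by 0.17 (adjusted P = 0.540) over the total period. Within slide 2 the first-period differences were 1.40 for *TPM1* and 0.64 for *TPM2* (limma, adjusted P = 0.195 and 0.424), again against 1 early array.

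*TPM3* and *TPM4*, the tropomyosins also used outside muscle, had log2 fold changes between −0.38 and 0.14. *TPM3* levels were 3.03 to 3.31 (median 3.14), 1.91 to 3.27 (median 2.89) and 2.74 to 3.07 (median 2.93). *TPM3* was the 1 member called lower at the middle than at the early stage, with a log2 fold change of −0.38 (SE 0.14), lower in 7 of 9 cattle (adjusted P = 0.0213), and the ranges overlapped. That call was lost under most alternatives: 75th percentile scaling (adjusted P = 0.0726), quantile normalization (0.0947), removal of dim probes, cyclic loess, the series matrix, every use of the slide as a block, slide 2 or the first scan day alone (−0.19, adjusted P = 0.270), the methods' t-test (0.0615), a fit of 2 stages and limma without animal 1, 8 or 9. It was kept with normexp correction, with outlier spots, without the animal block and without cattle 2 and 6. *TPM4* levels were 7.38 to 7.88 (median 7.66), 6.86 to 8.23 (median 7.60, 8 arrays) and 7.36 to 7.90 (median 7.72). Its log2 fold changes of −0.06, 0.13 and 0.07, each with an SE of 0.11 to 0.12, did not pass (adjusted P = 0.668, 0.317 and 0.730).

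The intensities were also read without scaling to the array median. *TPM1* intensity was 30.5 to 41.5 (median 34.4) at the early stage and 28.6 to 47.4 (median 36.7) at the middle stage, so the ranges overlapped, and it was 1.34 to 6.60 (median 3.76) at the late stage, below all others. *MYH11* intensity was 5.00 to 17.5, 9.18 to 25.4 and 3.77 to 11.2, and that of *TPM2* 7.51 to 15.9, 5.70 to 16.8 and 7.54 to 16.8. Of these 3 genes, *TPM1* at the late stage alone stood apart without scaling. The mean log2 difference of intensity between the middle and early stages was 0.66 for *MYH11* and 0.10 for *TPM1*. It was −0.19 for *TPM2*, −0.52 for *ACTA2* and between −1.61 and −0.88 for the other 6 genes, while the median over arrays of the array median fell from 38.5 to 16.4. Between the late and middle stages it was −0.84 for *MYH11* and −3.42 for *TPM1*, and 0.17 to 1.37 for the other 8 genes. *MYH11* and *TPM1* thus went the same way on both scales in both periods, though *TPM1* by only 0.10 unscaled in the first. *ACTA2* and *TPM2* did not. The second-period calls of *TAGLN* and *CNN1* also changed sign, from −0.70 and −0.86 scaled to 0.44 and 0.28 unscaled. Among the genes of the lists described below, those well above background on no array also rose and then fell on the scaled levels. Their log2 fold changes were 0.71 to 1.76 in the first and −2.05 to −1.31 in the second period. The part of array brightness in the called changes of the members, *MYH11* among them, was not tested.

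**Figure D3:**
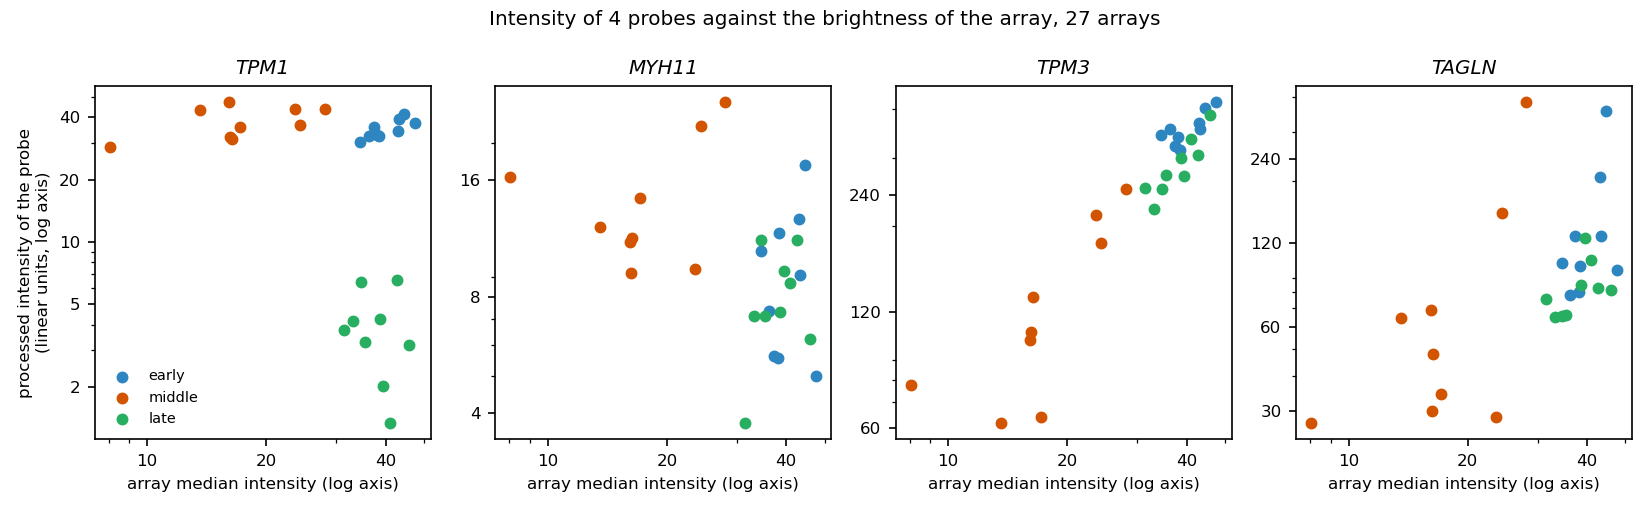
Processed intensity of the *TPM1*, *MYH11*, *TPM3* and *TAGLN* probes (linear units on a log axis) against the median intensity of the same array (log axis), with 1 point per array and colors for the stage. *TPM3* followed the array median across stages, whereas *TPM1* read 28.6 to 47.4 on the dim middle-stage arrays and 30.5 to 41.5 on the bright early-stage arrays, and dropped to 6.60 or less on the late-stage arrays.

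Between cattle, the median-scaled levels of the contractile genes varied together at the early stage and, apart from *MYH11*, at the middle stage. Animal 6 was the highest for most of them at both. At the early stage animal 6 had a *DES* intensity of 90.8, and the other 8 cattle had 2.42 to 11.9. At the middle stage *DES* read 87.0 in animal 6 and 34.5 in animal 2, and 1.12 to 4.03 in the other 7. Animal 6 was the highest of 9 for *MYL9*, *ACTA2*, *TAGLN*, *DES* and *CNN1* at both of these stages. At the late stage animal 2 was the highest for *MYL9*, *ACTA2* and *TAGLN*, and animal 6 for *DES* and *CNN1*. *MYH11* was highest in animal 6 at the early stage (−1.35), in animal 4 at the middle stage (1.02) and in animal 1 at the late stage. The signals of the 6 genes, each divided by the array median and added, came to 63.4 to 236 (median 95.9) early, 48.6 to 558 (median 199.6) midway and 72.5 to 123 (median 85.7) late in fattening. *ACTA2* makes up most of this sum, and in a bulk biopsy more smooth muscle cells and more RNA per cell cannot be told apart.

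Correlations over the 9 cattle were computed for the 15 pairs of the 6 genes at each stage, 45 in all, by exact two-sided permutation with Benjamini-Hochberg adjustment over the 45. At the early stage all 15 pairs had a Pearson r above 0 (median 0.83) and 11 passed, *MYH11* with *DES* (r = 0.79) among them. The closest pairs were *ACTA2* with *TAGLN* (r = 0.96) and *ACTA2* with *CNN1* (r = 0.94, Spearman rho = 0.95, exact permutation P = 1.93e-05, adjusted P = 8.68e-04). At the middle stage 9 of 15 passed (median r 0.75), none of them with *MYH11*, whose r ran from 0.22 to 0.50 against 0.65 to 0.91 for the other 10 pairs. Most of these 10 pairs include *DES* or *CNN1*. At this stage both genes were well above background only in animals 2 and 6, so these r values largely set 2 readable arrays against dim ones. At the late stage 2 of 15 passed, *MYL9* with *ACTA2* (r = 0.84, rho = 0.72) and *ACTA2* with *TAGLN* (r = 0.80, rho = 0.62), and the median r was 0.40. By Spearman's rho 4, 5 and 0 pairs passed, with medians of 0.77, 0.73 and 0.37. Without the 2 cattle farthest from the median of the first gene, the median r was 0.54, 0.68 and 0.19, and r stayed above 0 in 15, 15 and 11 pairs. Without animal 6 alone no pair passed at any stage, with 8, 7 and 2 pairs at an unadjusted exact permutation P below 0.05, and the median r was 0.70, 0.58 and 0.29. The number of pairs that passed therefore rests on animal 6. On the arrays of the slide that held most of a stage, 11, 10 and 2 pairs passed. Whether the stages differ in these correlations was not tested.

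**Figure D4:**
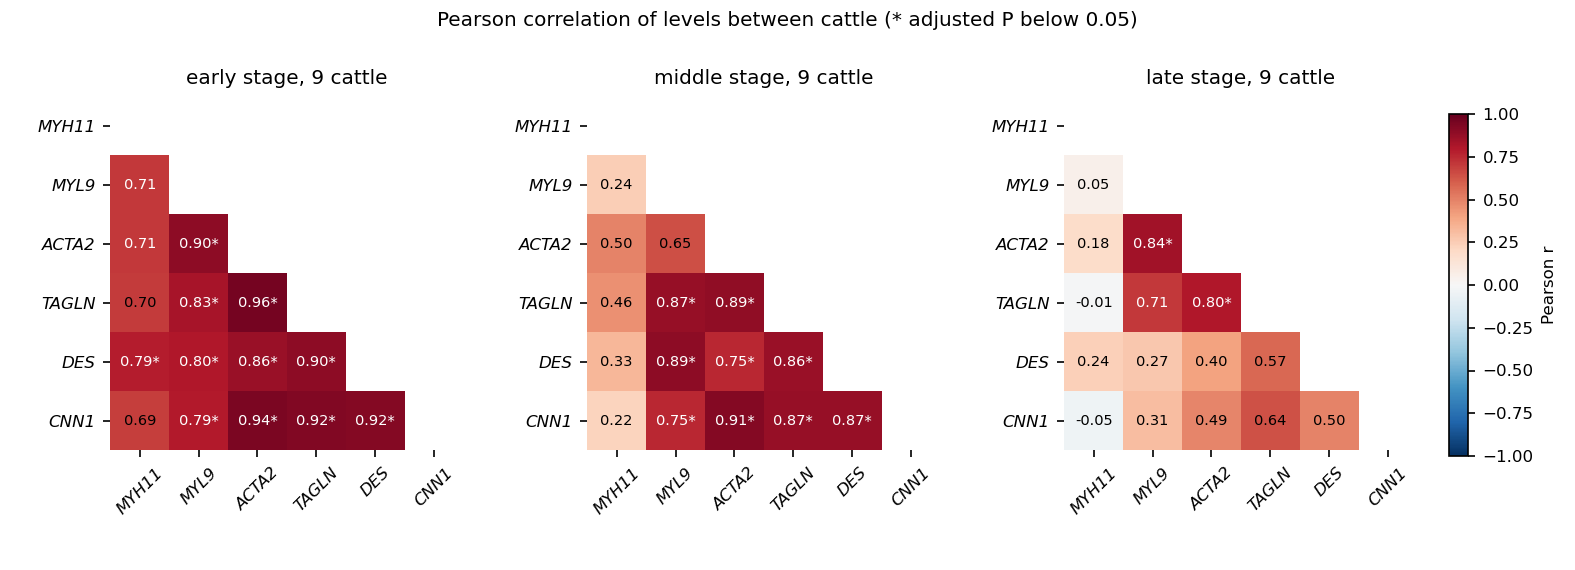
Pearson r between the levels of each pair of contractile genes over the 9 cattle, with 1 panel per stage and a star where the adjusted exact permutation P was below 0.05. Pairs without *MYH11* had r between 0.79 and 0.96 early, 0.65 and 0.91 midway and 0.27 and 0.84 late in fattening.

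The probes with the pattern most like *TAGLN* were sought, since *MYH11*, *DES* and *CNN1* were not well above background on all 27 arrays. Deviations from the stage means were correlated over the 27 arrays, which share cattle, for 6763 probes well above background on every array. The closest was *MYLK* (r = 0.93), the kinase that phosphorylates the myosin light chain. *ACTA2* (0.90) and *NEXN* (0.89), an actin-binding protein of muscle, followed, then a transcript named only as ENSBTAT00000020520 (0.83) and *FLNA* (0.83), an actin cross-linking protein. Animal 6 had the highest level of all 5 at the early and middle stages. Among the other members r with *TAGLN* was 0.86 for *CNN1*, 0.82 for *MYL9*, 0.80 for *DES* and 0.47 for *MYH11*. For the tropomyosins it was 0.54 (*TPM4*), 0.28 (*TPM2*), 0.10 (*TPM3*) and −0.15 (*TPM1*). These values are a description with no test.

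The array also held 16 further genes of smooth muscle. Of these, 10 were higher and the other 6 did not pass in the first period (median log2 fold change 0.65). In the second period 12 were lower and 4 did not pass (median −0.98), and over the total period 2 were lower (median −0.10). Of all probes 45.3% were higher in the first, 44.6% lower in the second and 8.93% lower in the total period. *CALD1*, caldesmon, an inhibitor of actin-activated myosin, led both periods with 1.57 (SE 0.20, adjusted P = 5.07e-06) and −1.63 (SE 0.20, adjusted P = 1.59e-06). *MYLK* was 0.59 higher and then 0.94 lower (log2 fold changes 0.59 and −0.94, adjusted P = 0.0342 and 0.00156), *SYNM*, an intermediate filament protein that binds desmin, 1.12 and −1.35, and *CSRP1* 0.91 and −1.05. *FHL1* had the largest fall of the total period (−1.17, SE 0.34, adjusted P = 0.0188). *PLN*, *PDLIM3*, *PDLIM7* and *NEXN* passed in no comparison. The median of this list lay on the same side as that of all probes in both periods and farther from 0, which was not tested.

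Genes of actomyosin outside the smooth muscle lists went both ways. Of 33, 15 were higher and 9 lower in the first period, 8 higher and 15 lower in the second, and 1 higher and 3 lower in the total period, with medians of 0.33, −0.15 and −0.04. *MYH9*, the non-muscle myosin heavy chain, rose by 1.60 (SE 0.15, adjusted P = 1.33e-07) and fell by 2.68 (SE 0.15, adjusted P = 7.77e-11). *RHOA*, the small GTPase upstream of actomyosin contraction, went the opposite way, with −1.60 and then 1.96. The 4 probes of *ACTB*, a paralog of *ACTA2*, disagreed, with first-period log2 fold changes of 0.64, 0.61, −0.74 and −1.14, all past the threshold. The direction of this cytoskeletal actin thus depended on the probe. *ACTG2*, the enteric smooth muscle actin, was among the genes sought by name, but no probe of that name entered the analysis.

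Markers of other cell types were counted in the same way, beside 45.3% of all probes higher and 21.3% lower in the first period and 44.6% lower in the second. The shares of fibroblast and leukocyte markers called higher in the first and lower in the second period were below those of all probes. Of 7 pericyte markers 4 were higher and none lower in the first period, and all 7 were lower in the second, led by *MCAM* (−2.17). Of 11 fibroblast markers 3 were higher and 1 lower, then 1 higher and 4 lower. Of 10 endothelial markers 5 were higher and 1 lower, then 0 higher and 5 lower. Of 12 leukocyte markers 4 were higher and 1 lower, then 3 higher and 5 lower. Of 5 red blood cell markers 3 were higher and 0 lower, then 0 higher and 2 lower, with the globin *HBA* at 1.22 and −1.13. Of 17 epithelial markers 4 were higher and 7 lower, then 4 higher and 5 lower, with *IVL*, a protein of the cornified envelope, at −1.99 and 2.58. Of 8 markers of interstitial cells and enteric nerve 7 were higher in the first and 5 lower in the second period, but at each stage only 1 of the 8 was read above background on every array. Over the total period 4 of 7 pericyte markers were lower and none higher, beside 8.93% of all probes lower and 11.2% higher. In each of the other lists 1 to 4 genes passed, beside 20.1% of all probes. 

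The summed signals of these lists, each gene divided by the array median, separated some stages. The pericyte sum was 100.2 to 129 early, 90.1 to 154 midway and 37.4 to 49.8 late, so all late-stage values lay below the rest. Of its genes 5 of 7 were read above background on every array at each stage, *ABCC9* on none of 27 and *PDGFRB* on 3. From early to late fattening *MCAM* changed by −2.35 (log2), and every other gene of this list by between −0.62 and −0.07. Bright genes weigh most in a sum of linear signals, so the low late-stage values need not hold for the pericyte list as a whole. The part of each gene in these sums was not tested. The red blood cell sum was 40.1 to 69.6 early, 106.6 to 200.1 midway and 46.3 to 92.6 late, with all middle-stage values above the rest, and 2 of its 5 genes were read on every array. These were *HBA*, which changed by 1.22 and then −1.13 (log2) in the first and second periods, and *AHSP*, which changed by 0.57 and then −0.13. The endothelial sum was 42.9 to 80.6, 55.0 to 114 and 56.1 to 87.6, and the leukocyte sum 48.6 to 99.6, 53.8 to 80.6 and 53.4 to 89.5. Both overlapped between all stages, with 9, 7 and 8 of 10 and 10, 6 and 9 of 12 genes read above background on every early, middle and late array. The part of cell composition in the members' changes was not tested.

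Striated muscle markers were mostly dim. Of 13, 8 were higher and 1 lower in the first and 2 higher and 9 lower in the second period, yet only 3, 1 and 4 were well above background on all 9 arrays of the early, middle and late stages. *MYH7*, *MYH2*, *TNNT3* and *TNNC1* were well above background on none of the 27 arrays. *MYLPF* was so on all 9 arrays of each stage, with log2 fold changes of 0.08, 0.89 and 0.97 in the 3 comparisons. *CKM* was so on 9, 1 and 9 and *TNNI2* on 4, 2 and 9 arrays of the early, middle and late stages. *ACTA1*, the skeletal alpha actin, was bright enough to read and had log2 fold changes of −0.92, −1.50 and −2.42 in the 3 comparisons.

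Across cattle, the summed signal of the 11 fibroblast markers, on the same scale as the sums above, was 146 to 1076 at the early, 161 to 1465 at the middle and 135 to 626 at the late stage. Animal 6 was the highest for this sum at the early and middle stages, as it was for the 5 contractile genes, and it was the 5th at the late stage. Its pericyte sum, of mural cells that also use *ACTA2*, was the highest of 9 at the early (129) and the 2nd at the middle stage (142), and its interstitial and nerve sum the highest at the middle stage. Its endothelial sum was the 5th of 9 at the early and the 7th at the middle stage. Its epithelial sum was the 3rd and the 2nd of 9, within ranges of 3547 to 4739 and 1088 to 4740. What set the biopsies of animal 6 apart was not tested.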

How the data were processed

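One-color arrays measured the RNA of 27 RE biopsies from 9 cattle. It was extracted by the authors with TRIzol, labeled with cyanine 3, and they deposited Feature Extraction output, in which the processed signal is a background-subtracted intensity on a linear scale, with 0 or 1 marks (other) for spots well above background, saturated or outliers. Its header names version 11.0.1.1, and the submitters' processing notes 9.5. The authors also deposited a log2 table, in which each array's 75th percentile stands near 0, used as an alternative.

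In R 4.3.3 the median log2 intensity of each array was subtracted, outlier spots were left missing, and spots of a probe were averaged. limma 3.58.1 (statmod 1.5.0) fitted 1 mean per stage and 1 effect per animal (the block), with Benjamini-Hochberg adjustment over 15008 probes. Arrays are paired by animal, since each animal gave a biopsy at every stage. The sample titles give a stage and a number from 1 to 9. The same number was taken as the same animal at each stage, which the titles do not state. Deviations from stage means correlated at a mean of 0.16 (−0.15 to 0.46) within and −0.02 (−0.41 to 0.29) between cattle so matched. On simulated data with 200 of 15008 probes changed, 74.5 and 68.5% were recovered in the first and second periods. The simulation held no effect of slide or array brightness and far fewer changed probes than were called here. It therefore does not gauge how reliable these calls are.

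Members and gene lists were chosen with earlier results of these data known. Named list genes are the largest rise and fall among those that passed and were read above background on every array of at least 1 stage, with others chosen after their values were seen. For a gene with several probes the brightest stood for it. The 9 arrays of a stage limit the precision.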

Additional observations from a re-analysis of the deposited data

Results flagged for a closer look

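Of 30 sets of 9 levels (10 genes at 3 stages), 2 held a value whose gap to its neighbor passed Dixon's critical value, and chance alone gives about 1 in 20. *DES* at the early stage was far higher in animal 6, with a level of 1.03 (intensity 90.8) against −1.86 in the next animal. *MYH11* at the middle stage was highest in animal 4, with a level of 1.02 (intensity 16.3) against −0.14 in the next. The array of animal 4 was the dimmest of the 27, with a median intensity of 8.05, and its unscaled *MYH11* intensity lay within the range of the other middle-stage arrays.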

How the results depend on the processing

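Of 643 values of single genes under the alternatives, 579 kept their side of the threshold, 58 lost the call, 6 gained one and 0 were called the opposite way. Values that passed in neither fit could change sign. The first-period value of *DES*, for example, was 0.34 in the main fit and −0.32 under quantile normalization. The counts of members called (5, 6 and 1) moved as follows, all by limma except the methods' t-test. In the first period 3 were called under quantile normalization, without dim probes (7 members left) and with slide as a random block. Scan day 1 alone, the methods' t-test and 2 stages in the fit also called 3. In the same order these settings called 47.8, 64.4, 45.5, 57.3, 59.3 and 61.9% of the probes they tested. Cyclic loess on probes well above background on all arrays (4 members left) called 1, 2 and 0 in the 3 comparisons. It called 64.8, 70.4 and 29.2% of the probes kept, and in the last comparison 2 members had an unadjusted P below 0.05. Slide as a fixed block without the replicate block called 2, beside 14.6% of all probes. With the replicate block it called 0, beside 0.00666% of all probes, and 2 members had an unadjusted P below 0.05. Slide 2 alone left 1 early array, so no count is given for it. No slide holds both stages except for the early array of animal 9. In the second period slide as a random block called 3, and so did leaving out cattle 2 and 6, an alternative chosen after seeing the data. Of all probes these 2 settings called 50.1 and 68.0%. Normexp in the second period called 7, beside 79.3% of all probes, with *TPM3* (0.57, adjusted P = 0.00629) and *TPM4* (0.93, adjusted P = 0.0153) higher and *DES* lower. In the total period the methods' t-test and the fit of 2 stages called 2 (*TPM1* and *TPM3*), beside 30.2 and 32.1% of all probes. Leaving out each animal gave 3 to 5, 4 to 6 and 1 to 1 members, with 3 in the first period without animal 8 or 9 and 4 in the second without animal 6 or 9. Dropping the pairing of arrays (no replicate block) gave 4, 4 and 1. *MYH11*, *TPM1* and *TPM2* kept both calls in each leave-one-out fit.

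Correlated pairs at the early stage numbered 3 under normexp, and at the middle stage 5 under quantile normalization. With normexp 11 of the 15 early pairs had an r above 0 (median 0.48), and the pairs with *MYH11* had a median r of −0.20 (−0.73 to 0.58). The joint variation of *MYH11* at the early stage thus depended on the background correction. Leaving out each animal gave 0 to 14, 0 to 11 and 0 to 3 pairs, with 0 without animal 6 at each stage and 1 at the late stage without animal 2, 3, 5 or 7. Signal over background limits *DES*, *CNN1*, *MYH11* and late-stage *TPM1* most. Under normexp with an offset of 50 the second-period values of *MYH11* and *TPM1* were −0.51 and −0.93.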
